A study of Mus musculus with 29 samples.

Results

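Border-associated macrophages were the cells that the authors' deposited annotation codes BAM at its coarser level, taken from brain libraries of young mice 2 days after stroke or sham surgery. The 8 libraries of these groups held 944 such cells among 29852 cells, 587 in sham and 357 in stroke, of 106977 cells in the 29 libraries of the series. All 8 libraries came from C57BL/6J males of 8 to 10 weeks. For stroke, the middle cerebral artery was occluded transiently, and the controls had sham surgery and were sampled on day 2. Stroke at day 14 was a further group of the same age and sex, with 214 BAM cells in 4 libraries and no sham group of its own. Aged C57BL/6J mice of 17 to 20 months gave sham and stroke libraries of both sexes.

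Each library pooled 4 to 5 hemispheres, so that a replicate is a pool of mice. The tissue of every group was digested with papain in the presence of actinomycin D, which blocks transcription, Brilliant Blue G, a P2X7 receptor antagonist, and AP-5, an NMDA receptor blocker. Cells were then sorted as CD45high cells, microglia and endothelial cells and profiled by Drop-seq, in which droplets join single cells with barcoded beads. The labels do not say that the pools shared no mice, and p-values measure the spread between these libraries, which may be technical.

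Border-associated macrophages are the resident macrophages of the meninges, the perivascular spaces and the choroid plexus, outside the brain tissue that microglia occupy. They are known by the mannose receptor Mrc1 (CD206), the chemokine Pf4 and, in subsets, the hyaluronan receptor Lyve1 or MHC class II molecules. They take up material from the blood and the cerebrospinal fluid and can release chemokines that act on circulating leukocytes.

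The depth behind the comparison was modest. BAM cells summed to 18523 to 197254 expected counts per sham library and 16809 to 241416 per stroke day 2 library, and the median BAM cell of a library held 275 to 974 counts. Of the 8 libraries, 2 stood apart before any comparison. In sham replicate 4 and stroke day 2 replicate 3, 42.8% and 61.8% of the non-zero values of BAM cells lay under 0.5, against 1.70% to 5.81% in the other 6. The highest mitochondrial percentage of any cell also split the libraries. It was 3.51% to 5.35% in sham replicate 1 and stroke replicates 1 and 2, and 18.8% to 20.1% in the other 5. The median mitochondrial percentage of BAM cells was 0.529% to 3.83% in sham and 0.330% to 1.88% in stroke. No pair of the 8 libraries shared more than 3 cell barcodes.

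Pooled BAM held more of both defining markers than the other types compared. Pooled over sham libraries, Mrc1 stood at 5044 counts per 1e6 counts (CPM) in BAM, 30.8 in microglia and 53.8 in monocyte-derived cells. Pf4 stood at 3143 CPM in sham BAM, 2.69 in microglia and 27.8 in monocyte-derived cells. Of the other types, dendritic cells held the most Mrc1, at 318 CPM in sham. Per-library values of single genes are scaled as in the tests below, per 1e6 counts of the tested genes and with TMM factors, so they lie above the pooled, unscaled ones. On this scale Mrc1 was at 5459, 8204, 8365 and 1713 CPM in sham and 4985, 3815, 1598 and 4046 in stroke. Pf4 was at 5272, 4676, 4152 and 389 CPM in sham and 5323, 5474, 4776 and 9041 in stroke. Both markers were lowest among sham libraries in replicate 4, and neither passed the test between the groups (log2 fold change -0.73 ± 0.45 SE for Mrc1 and 0.75 ± 0.54 for Pf4; adjusted p = 0.358 and 0.428).

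BAM also held counts of markers of other cells. On the unscaled scale, the 10 monocyte-derived markers summed to 571 to 4019 CPM in sham and 161 to 3154 in stroke. In the monocyte-derived cells themselves they summed to 11673 in sham and 9267 in stroke. The highest BAM values were those of sham replicate 4 and stroke replicate 3. The 10 microglial markers summed to 248 to 3307 CPM in sham and 335 to 3716 in stroke, against 24419 in sham and 17488 in stroke microglia. Neutrophil, endothelial, dendritic, B, T and natural killer, mural and fibroblast, neural and epithelial, and red cell lists each summed to at most 291 CPM in any of the 8 libraries. Itgae, Ncr1, Klrb1c, Prf1, Pdgfrb, Kcnj8, Col1a1, Col1a2, Lum, Aqp4, Snap25, Syt1, Kl and Alas2 were at 0 in BAM of all 8. The ranges of the sham and stroke libraries overlapped for both the monocyte-derived and the microglial list, and their part in the results below was not tested.

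BAM made up 3.09%, 5.98%, 4.79% and 1.37% of all cells in the sham libraries and 1.38%, 0.930%, 2.75% and 4.05% in the stroke libraries. The groups overlapped, and the difference of -1.53 percentage points did not pass (exact two-sided permutation test, p = 0.257, n = 4 against 4). Among leukocytes other than microglia, BAM were 24.3% ± 9.99 (SD, n = 4) in sham and 3.95% ± 3.56 in stroke. Every stroke library, at 1.43% to 9.16%, lay below every sham library, at 13.5% to 37.7%. The exact permutation p of 0.0286 is the smallest that 4 against 4 allows, and it was 0.0571 after adjustment over the 2 shares. The denominator changed with stroke, since 7225 monocyte-derived cells were recovered in the stroke libraries and 318 in the sham libraries. The sort also sets these shares, which are not cell densities in tissue.

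The deposited annotation divides BAM into 5 finer codes. BAM1 was Lyve1-positive in sham (1738 CPM pooled over libraries) and held little Cd74, the invariant chain of MHC class II (706 CPM). BAM2 was the converse, with Cd74 at 28568 CPM, Lyve1 at 4.88 CPM and the chemokine receptor Ccr2 at 2098 CPM. The defining markers were lowest in BAM2: in sham Mrc1 stood at 1387 CPM and Pf4 at 580, against 6883 and 4444 in BAM1. After stroke Mrc1 was at 577 CPM in BAM2. Dendritic cells were at 318 CPM in sham and 36.6 after stroke. BAM4 was rare in sham, with 4, 6, 0 and 0 cells in the 4 libraries, and numbered 11, 10, 43 and 32 in the stroke libraries. Its share of BAM was 1.47% ± 1.82 (SD, n = 4) in sham and 29.4% ± 12.2 in stroke, with no overlap. The exact permutation p was 0.0286, and 0.0952 after adjustment over the 5 codes. BAM5 followed the same order, at 1.56% ± 1.97 and 8.04% ± 6.10 (exact permutation p = 0.0571, adjusted p = 0.0952). The shares of BAM1, BAM2, BAM3 and BAM5 overlapped between the groups. The codes rest on expression, so a cell that changed its expression and a cell of another kind cannot be told apart. Sham replicate 4 was 82.7% BAM2, against 23.4% to 35.6% in the other sham libraries.

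**Figure D1:**
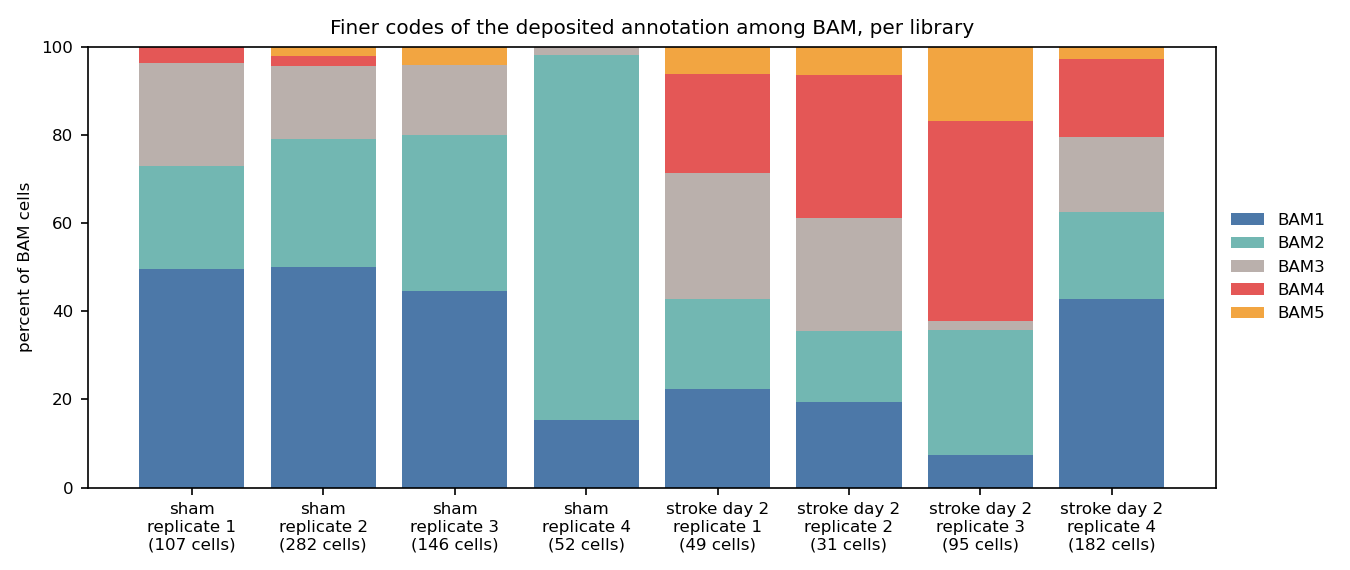
Stacked bars give the percent of BAM cells (y axis) in each of the 5 finer codes of the deposited annotation for the 4 sham and 4 stroke day 2 libraries, with the number of BAM cells under each bar. BAM4 takes 17.6% to 45.3% in the stroke libraries and at most 3.74% in sham, and BAM2 dominates sham replicate 4.

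Gene expression was compared on counts summed over the BAM cells of a library, with edgeR's quasi-likelihood test across all genes and Benjamini-Hochberg adjustment. Called genes are those with an adjusted p under 0.05. Of 1313 genes tested, 35 were called (2.67%), 23 higher after stroke (1.75%) and 12 lower (0.914%), and 301 had an unadjusted p under 0.05. The libraries of the groups did not overlap for 178 genes (13.6%). The genes that rose included the secreted protein Spp1, the chemokine Ccl8, the lysosomal protease Ctsd and the glycolytic enzyme Pkm. Those that fell included the transcription factor Klf4 and the nuclear NF-kB regulator Nfkbiz.

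The number of calls rested on single libraries. It was 2 without sham replicate 2, 3 without sham replicate 3, 8 without sham replicate 4, 11 without stroke replicate 3 and 5 without stroke replicate 4. It was 0 of 720 genes tested once BAM4 and BAM5 cells were left out (88 genes at an unadjusted p under 0.05), where 20 of the 35 genes could still be tested. All 20 kept their direction at an unadjusted p under 0.05, with a median size of 1.35 on the log2 scale against 1.76 with all cells. Left out together, sham replicate 4 and stroke replicate 3 took the count to 2, Spp1 and Pkm. None of the 35 genes changed sign in any of the 25 alternatives in which it could be tested, but the genes were chosen for their direction on these same libraries. On the low side of the mitochondrial split (1 sham against 2 stroke libraries) the median log2 difference was 1.27 for the 23 higher genes and -1.64 for the 12 lower genes. On the high side (3 against 2) it was 2.13 and -1.91. Pkm was called in all 23 alternatives in which it could be tested and Spp1 in 24 of 25. With BAM4 and BAM5 cells left out, Spp1 lost its call and Pkm could not be tested. Among the 25, leaving out Scrublet doublets removed no BAM cell, and the fit of every library with a cell used the same libraries. Both repeat the main fit, and every count of alternatives given here includes them.

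**Figure D2:**
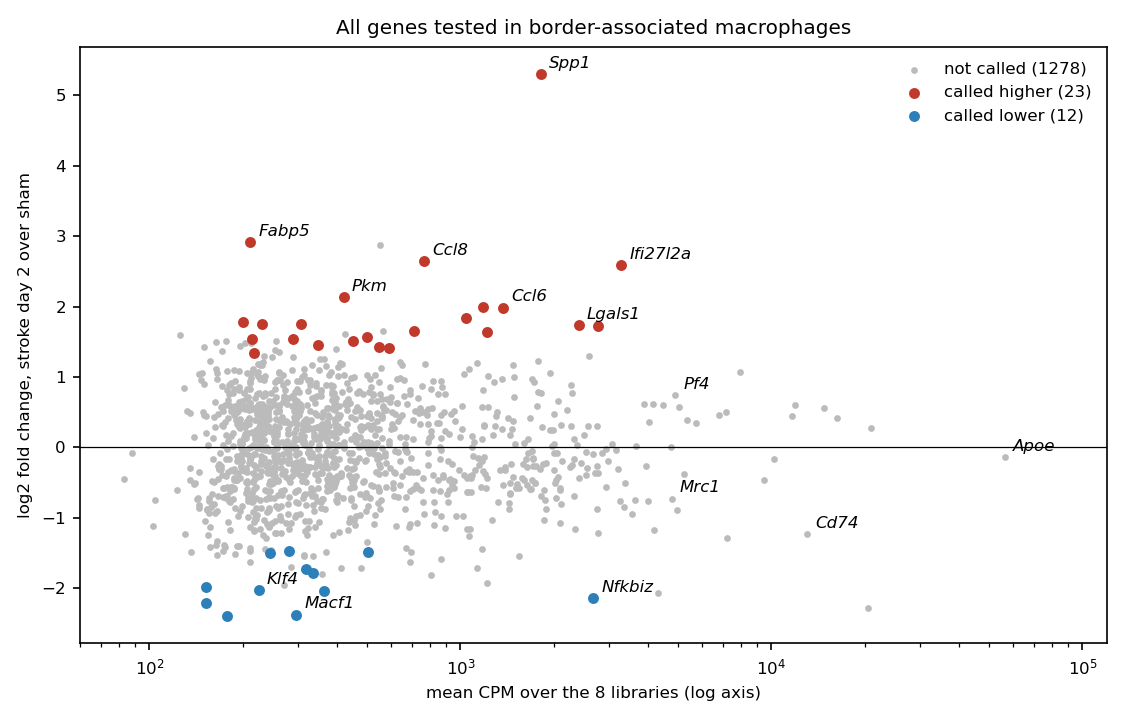
Each point is 1 of the 1313 genes tested, with its mean CPM over the 8 libraries (x axis, log scale) and its log2 fold change of stroke day 2 over sham (y axis). Spp1 stands alone above 5, the 35 called genes are coloured, and the markers Mrc1 and Pf4 lie among the genes not called.

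The list of 17 lipid-handling and lysosomal genes held the most calls. Like every list here, it was chosen with earlier results of these data known, so its count is no test of the list. Of 13 tested, 4 rose (Spp1, Fabp5, Plin2 and Ctsd), against 1.75% of all genes tested, none fell and 11 had a positive log2 fold change. Their median was 1.07, against 0.01 for all genes tested. Spp1, which encodes the secreted phosphoprotein osteopontin, was at 31.1, 132, 80.6 and 77.9 CPM in sham and 1577, 7547, 1998 and 3049 in stroke. Every stroke library was above every sham library (log2 fold change 5.30 ± 0.67, adjusted p = 0.00093). Single cells carried much of it: 1 cell gave 70.0% of the Spp1 counts of stroke replicate 2 and 83.4% of those of sham replicate 2. Without the highest cell of each library, and unscaled, Spp1 stood at 0 to 27.0 CPM in sham and 732 to 1893 CPM in stroke. Spp1 was higher still in other cells after stroke, at 13867 CPM in microglia and 6606 in monocyte-derived cells against 2014 in BAM (pooled, unscaled). Endothelial cells of the same libraries held none (under 0.001 CPM), and granulocytes held 107 CPM. Free RNA was not measured, and its part in the Spp1 values was not tested.

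Fabp5, a fatty acid-binding protein, was at 46.7, 51.5, 20.2 and 77.9 CPM in sham and 310, 332, 742 and 107 in stroke. Only 12 counts lay behind the sham values, and the groups did not overlap (log2 fold change 2.92 ± 0.66, adjusted p = 0.030, called in 15 of 20 alternatives). Plin2, which coats lipid droplets, was at 187, 279, 665 and 234 CPM in sham and 986, 912, 1351 and 1074 in stroke. It rose by 1.65 ± 0.38 on the log2 scale (adjusted p = 0.033, called in 14 of 25 alternatives). Ctsd, the lysosomal aspartic protease cathepsin D, was at 2177, 1507, 1068 and 234 CPM in sham and 3746, 5391, 3825 and 4177 in stroke. It was called in 5 of 25 alternatives only (log2 fold change 1.72 ± 0.44, adjusted p = 0.048). Cathepsin B, Ctsb, went from a mean of 5096 CPM to 10809 CPM without overlap, and missed the threshold (adjusted p = 0.095). Apoe, the lipid carrier and the most abundant member at 58978 CPM in sham, had a log2 fold change of -0.14 ± 0.27, and the efferocytosis receptor Mertk was the most negative (-1.47 ± 0.62, adjusted p = 0.177).

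Atp6v0d1, a subunit of the proton pump that acidifies lysosomes, went from 109, 95.6, 101 and 0 CPM in sham to 282, 332, 323 and 352 in stroke (log2 fold change 1.78 ± 0.37, adjusted p = 0.030). Cstb, the cathepsin inhibitor cystatin B, went from 467 CPM ± 159 (SD, n = 4) to 1901 ± 1286 (2.00 ± 0.48, adjusted p = 0.037). Chosen after their values were seen, P4hb, Pdia6 and Ppib are folding enzymes of the endoplasmic reticulum, and they rose by 1.53, 1.43 and 1.41 on the log2 scale. Pld3, Vps29 and Rab11a, of lysosomes and endosomal traffic and also chosen after their values were seen, rose by 1.34, 1.54 and 1.46.

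Pkm, the pyruvate kinase that ends glycolysis, was at 171, 125, 222 and 77.9 CPM in sham and 620, 663, 761 and 728 in stroke. The stroke libraries lay close together and well above sham (log2 fold change 2.14 ± 0.30, adjusted p = 0.0019). Pkm was the 1 gene called of 5 tested in a list of 16 for glycolysis and hypoxia, whose median was 1.16. Of all genes tested, 1.75% were called higher. Ldha, lactate dehydrogenase, had means of 217 and 490 CPM without overlap (1.25 ± 0.33, adjusted p = 0.060). Aldoa was at 1.16 ± 0.46 and Gapdh at -0.42 ± 0.66, and neither was called.

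Promoters of these genes were read to show what the sequence near their start sites holds. RefSeq windows of GRCm38.p6, from 250 bases before to 50 after a start site, existed for 17 of the 23 genes that rose. The 5 letters ACGTG, on either strand, occurred in 9 of the 17 (Atp6v0d1, Ctsd, Nme1, P4hb, Pdia6, Pkm, Plin2, Ppib and Rnh1). They occurred in 30.7% of the 1014 tested genes with a window, in 21.8% of all 27025 genes with one, and in 3 of the 7 genes that fell and had one. The longer CACGTG, which contains ACGTG and reads the same on both strands, was in 5 of the 17, in 3 of the 7 that fell and in 12.5% of the tested genes. ACGTG is the core of the hypoxia response element and CACGTG the core of the E-box bound by lysosomal gene regulators of the TFEB family. These were 2 of 9 motifs searched after the values were seen, and a match does not show a site. The 4 promoters below, of genes that rose, are given 5′ to 3′ on the gene's strand, with each ACGTG or its reverse complement in capitals.

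Ctsd, chr7:142387778-142388077, minus strand: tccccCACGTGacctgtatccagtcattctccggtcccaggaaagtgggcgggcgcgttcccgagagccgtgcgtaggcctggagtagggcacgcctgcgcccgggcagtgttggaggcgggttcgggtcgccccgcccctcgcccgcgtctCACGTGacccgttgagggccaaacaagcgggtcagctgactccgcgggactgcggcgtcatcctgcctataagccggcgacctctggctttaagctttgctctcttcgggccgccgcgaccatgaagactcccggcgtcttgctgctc

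Atp6v0d1, chr8:105566015-105566314, minus strand: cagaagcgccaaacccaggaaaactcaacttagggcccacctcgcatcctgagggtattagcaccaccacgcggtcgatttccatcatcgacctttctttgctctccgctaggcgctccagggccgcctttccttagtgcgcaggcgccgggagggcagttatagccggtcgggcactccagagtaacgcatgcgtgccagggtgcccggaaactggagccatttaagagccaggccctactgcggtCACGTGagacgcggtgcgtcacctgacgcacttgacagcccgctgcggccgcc

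Plin2, chr4:86670010-86670309, minus strand: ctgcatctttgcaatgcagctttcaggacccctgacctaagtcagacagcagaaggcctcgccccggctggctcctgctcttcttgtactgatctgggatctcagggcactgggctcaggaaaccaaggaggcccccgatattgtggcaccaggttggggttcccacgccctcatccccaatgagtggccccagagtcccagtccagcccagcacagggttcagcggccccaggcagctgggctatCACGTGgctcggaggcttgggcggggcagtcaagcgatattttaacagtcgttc

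Pkm, chr9:59656977-59657276, plus strand: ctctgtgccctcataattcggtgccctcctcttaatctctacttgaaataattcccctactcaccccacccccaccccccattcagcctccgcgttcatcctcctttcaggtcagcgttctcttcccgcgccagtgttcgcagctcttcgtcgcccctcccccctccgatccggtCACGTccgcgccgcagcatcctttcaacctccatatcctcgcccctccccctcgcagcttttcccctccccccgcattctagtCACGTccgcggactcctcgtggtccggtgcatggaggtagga

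Of the 17 windows, those of Ctsd and Atp6v0d1 held the longer GTCACGTG or its reverse complement, also found in 1 of the 7 genes that fell, Prrc2c, and in 6.02% of the tested genes with a window. In Plin2 the match is CACGTG, and in Pkm both matches are the 5-letter form. A second RefSeq start site of Pkm, farther upstream, held none.

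Of 14 tested in a list of 19 chemokines and cytokines, 3 rose (Ccl8, Ccl6 and Ccl9), against 1.75% of all genes tested. None fell, and the median log2 fold change was 0.09. Ccl8, a ligand that attracts monocytes, was at 233, 184, 322 and 77.9 CPM in sham and 845, 415, 1199 and 2811 in stroke. It rose by 2.64 ± 0.53 on the log2 scale (adjusted p = 0.030, called in 16 of 25 alternatives). After stroke it stood at 1502 CPM in pooled BAM and at 4.77 CPM in monocyte-derived cells, 2.40 in microglia, 2.19 in dendritic cells and 0.671 in endothelial cells. In sham, too, BAM held the highest level, at 151 CPM against at most 1.10 in these other types.

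Ccl6, a CC chemokine that ligates Ccr1, was at 560, 669, 443 and 545 CPM in sham and 1127, 1576, 1941 and 4064 in stroke (log2 fold change 1.98 ± 0.40, adjusted p = 0.030). Ccl9, which lies beside Ccl6 on chromosome 11 (start 83572919 against 83587882, GRCm38), went from 586 CPM ± 148 (SD, n = 4) to 1845 ± 773 (1.63 ± 0.41, adjusted p = 0.045). Both had all stroke libraries above all sham libraries, and they were called in 15 and 12 of 25 alternatives. The monocyte attractant Ccl2 was at 1474 and 1522 CPM, and Ccl12 at 2029 and 2517, with log2 fold changes of 0.04 ± 0.48 and 0.30 ± 0.64. Il1b (5822 and 2533 CPM), Ccl4 (2515 and 1191) and Cxcl2 (4598 and 2686) had lower means after stroke, and none was called (adjusted p = 0.275, 0.229 and 0.529).

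Against 1.75% of all genes tested, 1 of 9 rose in the interferon response list, Ifi27l2a, an interferon-inducible gene. It was even across sham, at 1073, 823, 927 and 934 CPM, and spread over stroke, at 1803, 3649, 10751 and 6320. The log2 fold change was 2.59 ± 0.45 (adjusted p = 0.013, called in 20 of 25 alternatives). The antiviral genes Ifitm3 (1067 and 2489 CPM) and Bst2 (810 and 1641) also had no overlap and missed the threshold (adjusted p = 0.060 and 0.070). Isg15, a ubiquitin-like protein that is among the most inducible interferon targets, was at 551 and 443 CPM (-0.19 ± 0.34), and Irf7 was at 0.82 ± 0.54. The list's median was 0.82.

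Lgals1, the secreted lectin galectin-1, was the 1 gene called of 8 tested in the motility list, where 1.75% of all genes tested were called higher. It was at 1369, 1235, 947 and 856 CPM in sham and 2817, 2571, 4319 and 5084 in stroke (log2 fold change 1.74 ± 0.37, adjusted p = 0.030). Other genes that rose belonged to no list. Ms4a6d, a tetraspan membrane protein of myeloid cells, rose by 1.83 ± 0.42, Nme1, a nucleoside diphosphate kinase, by 1.76 ± 0.39, and Rnh1, the ribonuclease inhibitor, by 1.75 ± 0.43. Txn1, thioredoxin, rose by 1.52 and Tspo, the mitochondrial translocator protein used as an imaging target of neuroinflammation, by 1.57, both chosen after their values were seen. In the iron, haem and antioxidant list none of 10 tested was called: the haem oxygenase Hmox1 was at 1.60 ± 0.53 (adjusted p = 0.095) and peroxiredoxin Prdx1 at 1.20 ± 0.34 (adjusted p = 0.066).

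**Figure D3:**
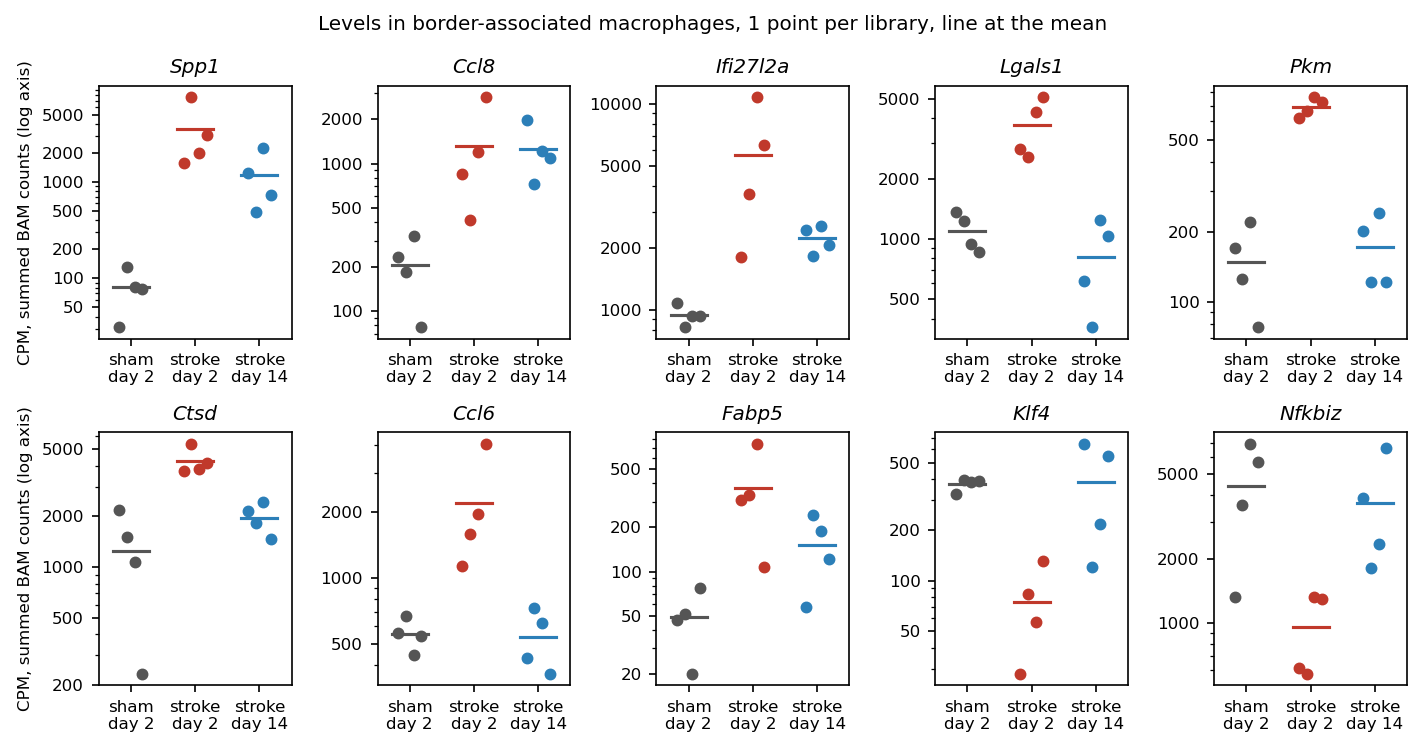
Each panel gives 1 gene's TMM-scaled CPM (y axis, log scale) in the summed BAM cells of each library of sham day 2, stroke day 2 and stroke day 14, with a line at the group mean. In the first 8 panels every stroke day 2 point lies above every sham point. Klf4 lies below without overlap, and Nfkbiz overlaps by the lowest sham library.

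Early response genes lay on the lower side. All 14 of the list were tested, all 14 had a negative log2 fold change (49.7% of all genes did), and the median was -0.77. Only for 2 of the 14 did every stroke library lie below every sham library, as for 67 of the 1313 genes tested. Klf4, a transcription factor that restrains inflammatory activation in myeloid cells, was the 1 gene of the list called, where 0.914% of all genes tested were called lower. It was at 327, 397, 383 and 389 CPM in sham and 28.2, 82.9, 57.1 and 131 in stroke, with no overlap (log2 fold change -2.03 ± 0.45, adjusted p = 0.030). Fosb was at -1.63 ± 0.51, Egr1 at -1.49 ± 0.49 and Jun at -1.22 ± 0.40, with adjusted p of 0.088, 0.094 and 0.094. Nfkbiz, which encodes a nuclear IkB protein, was the 1 gene that fell of 3 tested in the NF-kB feedback list. It was at 1322, 3602, 6933 and 5683 CPM in sham and 620, 581, 1332 and 1295 in stroke (-2.14 ± 0.52, adjusted p = 0.042). Klf4 was called in 14 and Nfkbiz in 12 of 25 alternatives. The median mitochondrial percentage of BAM, given above, was also lower in all 4 stroke libraries than in sham replicates 2 to 4. With the mitochondrial split as a term, Klf4 was at -2.02 ± 0.46 and Nfkbiz at -1.85 ± 0.43 (adjusted p = 0.029 and 0.030). The term holds the ceiling of a library and not the median percentage of its BAM cells. Among libraries with the higher ceiling, that median was 1.17% and 1.88% in stroke and 3.54% to 3.83% in sham, and its part was not tested.

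Several of the other genes that fell have long transcripts. Macf1, a cytoskeletal cross-linker, was at 233, 316, 625 and 856 CPM in sham and 141, 82.9, 38.1 and 83.5 in stroke (log2 fold change -2.38 ± 0.47, adjusted p = 0.030). Cntrl, a centrosomal protein, was at -2.21 ± 0.48, Mycbp2, a ubiquitin ligase, at -1.74 ± 0.39, and Prrc2c at -1.47 ± 0.36. They were called in 11 of 16, 14 of 25 and 9 of 23 alternatives in which they could be tested. The p53-responsive Pmaip1 and the kelch protein gene Ivns1abp were at -2.05 ± 0.52 and -1.51 ± 0.39 (adjusted p = 0.048 for both). Pmaip1 was called in 11 of 25 alternatives and Ivns1abp in only 5 of 23. Rock2, a protein kinase, and Abca9, an ABC transporter, both chosen after their values were seen, were called lower while their libraries overlapped. In GENCODE vM21 the longest transcript of the 12 genes that fell, 2 predicted genes included, had a median length of 6832 bases, against 1629 for the 23 that rose and 2147 for all tested genes with a length. Macf1 has the longest of the 12, at 23495 bases.

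Among the lists with no call, the 20 border macrophage identity genes had 19 tested, 9 with a positive and 10 with a negative log2 fold change, and a median of -0.01. Wfdc17, a secreted protein, was at 1.06 ± 0.48 (adjusted p = 0.198) and the lectin Cd209f at -1.47 ± 0.71. F13a1 was at 0.01 ± 0.45, Lyve1 at 0.17 ± 0.69 and Cd163 at -0.57 ± 0.64, so that the errors leave room for changes in either direction. All 6 tested genes of MHC class II presentation had a negative value, with a median of -0.89. H2-Ab1, a class II chain, was at -1.29 ± 0.50 (adjusted p = 0.149). Cd74 was at 14261, 12079, 13363 and 33556 CPM in sham and 3718, 3732, 14747 and 8790 in stroke (-1.23 ± 0.48, adjusted p = 0.150). The groups overlapped, and the highest sham library was the one composed mostly of BAM2. Ccr2, from the monocyte-derived list, was at -1.93 ± 0.86 (adjusted p = 0.197). Within pooled BAM2 cells Cd74 stood at 28568 CPM in sham (95% exact Poisson interval 27616 to 29537, counting error only) and 34131 in stroke (32725 to 35578), with no test.

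The remaining lists had no call either. Macrophage transcription factors and growth factor receptors had 9 tested and a median of -0.61, with Mef2c at -1.18 ± 0.55. MHC class I had 6 tested and a median of -0.17, and glucocorticoid response 3 tested and a median of -1.16, with Errfi1 at -1.47 ± 0.51. Complement and Fc receptors had 12 tested, 10 of them positive, and a median of 0.52, with Fcgr1 at 0.99 ± 0.34 (adjusted p = 0.100). Matrix and tissue repair had 4 tested and a median of 0.45, and proliferation 3 tested and a median of -0.22.

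**Figure D4:**
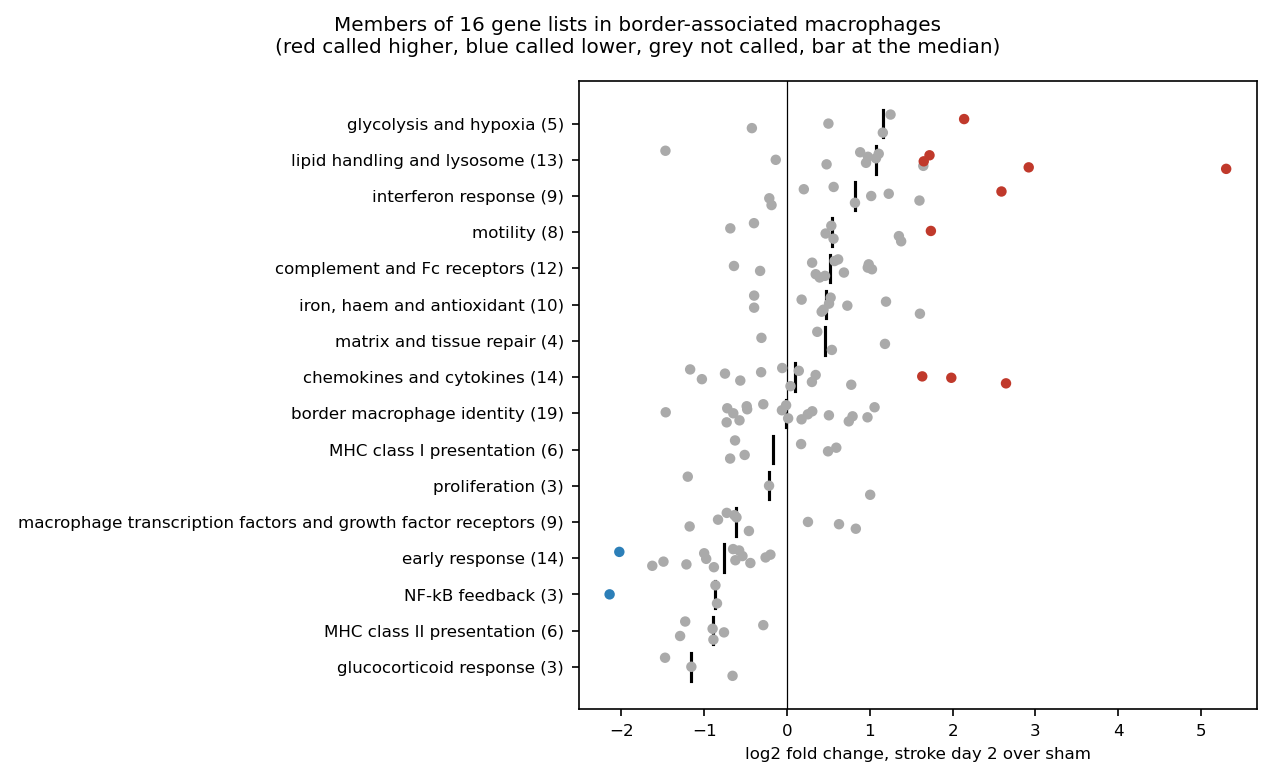
Each point is 1 tested member of 1 of the 16 gene lists (y axis, with the number tested), placed by its log2 fold change of stroke day 2 over sham (x axis). Black bars mark list medians, from -1.16 for the glucocorticoid response to 1.16 for glycolysis and hypoxia, and coloured points are called genes.

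Since the groups did not overlap in their BAM4 share, a difference that did not pass after adjustment, the called genes were read within codes, pooled over the libraries of a group and without a test. Of the 23 genes that rose, 22 were higher after stroke within BAM1, 22 within BAM2, 23 within BAM3, 22 within BAM4 and 19 within BAM5. Of the 12 that fell, 12, 12, 11, 11 and 9 were lower. These genes were chosen for this change in the same cells. Of all 660 tested genes with a positive value in summed BAM, 71.7% to 80.3% were higher within a code, and of the 653 with a negative value 59.1% to 77.0% were lower. Ifi27l2a went from 472 CPM (95% exact Poisson interval 381 to 572, counting error only) to 2075 (1833 to 2343) in BAM1 and from 1037 (860 to 1232) to 3411 (2975 to 3887) in BAM2. In BAM3 it went from 205 (82.8 to 424) to 8005 (7281 to 8766). The BAM3 stroke counts of Ifi27l2a were 17, 2, 0 and 439 in replicates 1 to 4, so the pooled value is mostly that of replicate 4. In BAM2 the libraries overlapped, at 1497, 1123, 648 and 716 CPM in sham and 863, 0, 6296 and 1975 in stroke. Lgals1 went from 900 (777 to 1039) to 1948 (1715 to 2209) CPM in BAM1 and from 686 (544 to 848) to 970 (743 to 1238) in BAM2. Klf4 went from 327 (253 to 413) to 122 (66.3 to 195) in BAM1. The stroke libraries held 11, 6, 7 and 78 BAM1 cells, so the pooled BAM1 values lean on replicate 4. By library, Lgals1 in BAM1 overlapped, at 911, 936, 793 and 202 CPM in sham and 2174, 631, 651 and 2002 in stroke.

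Some of these pooled values rested on single libraries. Spp1 in BAM1 went from 95.7 to 1525 CPM, but 66 of its 193 stroke counts came from replicate 2, 64 of them from 1 cell. In BAM3 all 192 Spp1 counts after stroke came from replicate 4, and the other 3 stroke libraries, with 24 BAM3 cells, held none. BAM4 was more even, with 27, 25, 71 and 171 Spp1 counts in the 4 stroke libraries (1892, 3328, 2518 and 3358 CPM) and none in the 10 sham cells (0 to 421 CPM). Fabp5 was low in BAM1 and BAM2 in both groups (at most 57.0 CPM) and stood at 351 CPM in BAM4 and 823 in BAM5 after stroke. Ccl8 was already at 1478 CPM (790 to 2536) in the 10 sham BAM4 cells, and at 2334 (2048 to 2654) after stroke.

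The same surgery changed other myeloid cells of these libraries. Each gene's change in BAM was therefore set against its change in microglia and in monocyte-derived cells. The difference was tested in a fit with the library as a block. Each type's own change came from a fit without the block, so the changes do not subtract exactly to the difference. All 35 called genes had the same direction in microglia, and 34 of 35 in monocyte-derived cells, against 72.8% of 5010 and 72.6% of 1873 genes tested in these fits. The cell types come from the same libraries. Across all genes, the change differed between BAM and microglia for 470 of 5010 genes (9.38%), 94 more positive and 376 more negative in BAM. Library-size scaling without TMM gave 244 and 317. Between BAM and monocyte-derived cells it differed for 56 of 1873 genes (2.99%), 15 more positive and 41 more negative, and for 15 to 94 as single libraries were left out. Without TMM the split was 29 and 32.

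Of the 35, 9 differed from microglia, 8 of them with the smaller change in BAM. These changes are ratios to each cell type's own sham level, and stroke replicate 3 held only 58 microglia. Spp1 rose by 5.17 on the log2 scale in BAM and 11.86 in microglia (difference -6.77 ± 0.73, adjusted p = 1.7e-09). Lgals1 rose by 1.78 and 7.36 (difference -5.65 ± 0.47, adjusted p = 7.8e-13), while its level after stroke remained higher in BAM, at 3192 CPM against 407 in microglia. Ifi27l2a (difference -2.93), Fabp5 (-2.93), Plin2 (-2.47), Tspo (-1.92), Txn1 (-1.21) and Cstb (-1.10) followed the same order. Ccl6 was the exception, with a rise of 2.03 in BAM and 0.91 in microglia (difference 1.05 ± 0.35, adjusted p = 0.049).

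Against monocyte-derived cells 3 of the 35 differed. Ccl6 changed by 1.96 in BAM and -0.07 in monocyte-derived cells (difference 1.95 ± 0.28, adjusted p = 0.0016), and Ccl9 followed (1.60 and 0.39; difference 1.18 ± 0.26, adjusted p = 0.027). Ctsd had the larger change in monocyte-derived cells (1.67 in BAM and 3.64; difference -2.07 ± 0.29, adjusted p = 0.0016). The tetraspanin Cd63 (0.84 and 4.28; difference -3.54) and Ccl2 (0.01 and 2.79; difference -2.89), neither called in BAM alone, differed in the same direction as Ctsd (adjusted p = 0.0016 for both). The 318 monocyte-derived cells of sham libraries are the baseline of these values.

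**Figure D5:**
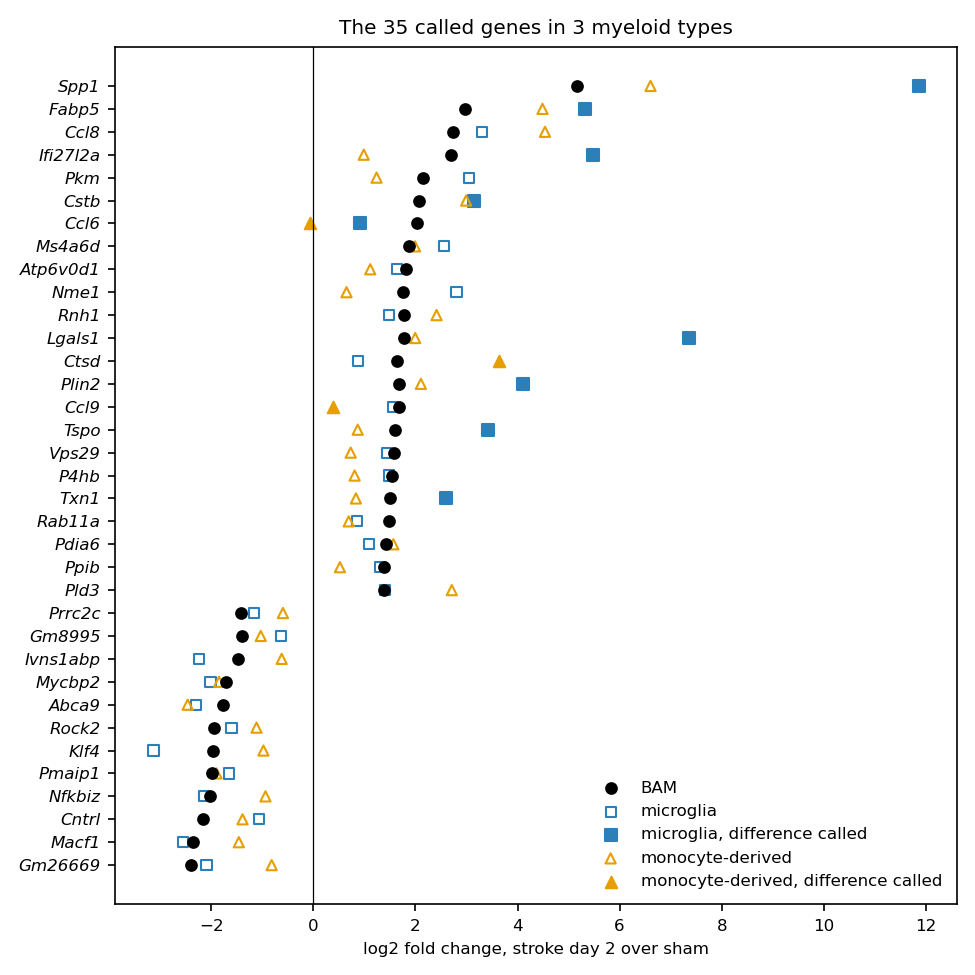
For each of the 35 called genes (y axis), points give the log2 fold change of stroke day 2 over sham (x axis) in BAM, microglia and monocyte-derived cells, and filled squares and triangles mark a called difference from BAM. Spp1 and Lgals1 lie far to the right in microglia, and Ccl6 near 0 in monocyte-derived cells.

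Day 14 was compared with sham and with day 2. The comparisons with sham share the sham libraries, and day 14 against sham combines stroke with a longer time since surgery. Day 14 against sham gave 1 called gene of 1313 (0.0762%), Spp1, at 1235, 485, 2266 and 731 CPM (log2 fold change 3.82 ± 0.65, adjusted p = 0.033). Day 14 against day 2 gave 11 (0.838%). Pkm, Lgals1 and Ccl6 were lower at day 14 than at day 2, by -1.86 ± 0.32, -2.14 ± 0.39 and -2.09 ± 0.42, and Klf4 was higher by 2.24 ± 0.47 (adjusted p = 0.026, 0.026, 0.032 and 0.032). Deviations of same-numbered libraries of the 2 stroke groups had correlations of 0.14 to 0.57. Differently numbered sham and stroke day 2 libraries also reached 0.41, so whether the numbers pair libraries is not known. With the replicate number as a block, 1 gene was called, Saa3, chosen after its values were seen (adjusted p = 0.056 for Pkm, 0.058 for Lgals1, 0.076 for Ccl6 and 0.075 for Klf4). In a fit of the 2 stroke groups alone 28 of 805 genes were called with the block and 1 without it, Pkm. For the 23 genes called higher at day 2 the median log2 fold change from sham was 1.74 at day 2, the contrast that chose them, and 0.62 at day 14. Ccl8 was at 1982, 727, 1214 and 1097 CPM at day 14 (-0.08 ± 0.48 against day 2).

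In aged mice 1 sham library (female, 96 BAM cells) and 2 stroke day 2 libraries (1 male with 42 and 1 female with 55) held at least 20 BAM cells. The lone sham library was assumed to vary like the other groups, and sex is mixed in with the comparison. Of 2091 genes tested, 1 was called (0.0478%). This was Spp1, with 0 counts in the aged sham library, where 3 counts would stand at 70.6 TMM-scaled CPM. In the aged stroke libraries Spp1 was at 3409 and 8446 CPM. The aged sham arm has no spread of its own, and the call was lost without TMM and without the female stroke library (0 called in both). Of the 35 genes called in young mice, 34 had the same direction in aged mice, against 62.8% of the 1305 genes tested in both. The difference between aged and young mice was called for 0 of 2091 genes (0%), with 64 at an unadjusted p under 0.05. The exception was Pdia6, and Ccl8 had a log2 fold change of only 0.01 ± 0.92, at 1270 CPM in aged sham and 527 and 2049 in aged stroke.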

How the data were processed

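The deposited tables hold expected counts per gene and cell, not whole numbers, made by the authors from Drop-seq reads. The submitters' processing notes name mm10 and Seurat, with no role, and the aligner and counter are not given in the sources used here. The authors' deposited cell table gives each cell's codes and its mitochondrial percent. Whether doublets were removed is not given in the sources used here. Scrublet (scanpy 1.11.5) marked 2 cells of the 8 libraries and no BAM cell, so it did not work as a doublet check.

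Here the expected counts were summed over the BAM cells of each library with at least 20 of them and rounded. The fit (edgeR 4.0.16, R 4.3.3, limma 3.58.1) held 12 young brain libraries (sham day 2, stroke day 2 and stroke day 14), TMM scaling, filterByExpr, the quasi-likelihood test and Benjamini-Hochberg adjustment over all genes tested. The SE is the size of the log2 fold change over the square root of F. CPM of a gene per library is per 1e6 counts of the tested genes with TMM factors. CPM pooled over libraries, per cell code, without the highest cell or summed over marker lists is per 1e6 counts of all genes, unscaled. Same-numbered libraries of stroke day 2 and day 14 had correlations of their deviations of 0.14 to 0.57. Those of sham and stroke day 2 were at -0.23 to 0.03, and differently numbered ones reached 0.41. The labels give no pairing, and these correlations cannot show whether the numbers pair libraries. Differences between cell types were fitted with the library as a block. Shares were compared with exact two-sided permutation tests (scipy 1.17.1). On simulated counts for the day 2 comparison (1214 genes), 90% of 4-fold and 93% of 8-fold changes were recovered, and 1.61% of calls were false. The simulation drew every library from the fitted trend of the spread and held no library that stood apart. Its rates check the fit and do not measure recovery or false calls in the real libraries.

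Genes were named by rule: called, at least 50 CPM in the higher group, no overlap of libraries and no other type over 10 times the BAM level, up to 12 at each end, with predicted genes not named. Members of the gene lists are named as examples, mostly those of smallest p. The BAM cells, the lists and the rule were chosen with earlier results of these data known. DESeq2 1.42.0, other filters and scaling, and left-out libraries and cells were tried as alternatives. No test within a finer code was run, since no code had 20 cells in 3 libraries of both groups.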

Additional observations from a re-analysis of the deposited data

Results flagged for a closer look

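In 4 of 84 groups of 4 libraries looked at, 1 library stood far from the other 3, where chance gives about 1 in 20. Pf4 was at 9041 CPM in stroke day 2 replicate 4, against 4776 to 5474 in the other stroke libraries. The other 3 cases were all sham replicate 4, the shallowest sham library: Atp6v0d1 at 0 CPM, Rock2 at 77.9 CPM and BAM1 at 15.4% of BAM cells.

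The change after stroke differed between BAM and another cell type in 12 of 70 tests of a called gene. These were 9 of 35 against microglia and 3 of 35 against monocyte-derived cells. Across all genes tested in these fits the shares were 9.38% of 5010 and 2.99% of 1873. Against microglia the difference on the log2 scale, BAM minus microglia, was -6.77 for Spp1, -5.65 for Lgals1, -2.93 for both Fabp5 and Ifi27l2a, -2.47 for Plin2, -1.92 for Tspo, -1.21 for Txn1, -1.10 for Cstb and 1.05 for Ccl6. Against monocyte-derived cells it was 1.95 for Ccl6, 1.18 for Ccl9 and -2.07 for Ctsd.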

How the results depend on the processing

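The 35 calls became 19 with no filter on low counts (7 of them shared), fell to 3 without cells under 500 counts, and to 2 with the replicate number as a block. Deviations of same-numbered sham and stroke day 2 libraries had correlations of 0.03, -0.03, -0.23 and -0.07, and differently numbered ones reached 0.41. Same-numbered libraries of stroke day 2 and day 14 were at 0.17, 0.24, 0.57 and 0.14, and those of sham and day 14 at -0.12, 0.02, -0.22 and 0.30. These values cannot show whether the numbers pair libraries. With the block the 11 calls between the stroke groups became 1, or 28 in a fit of those groups alone, where leaving the block out gave 1. The fits of day 14 against day 2 were chosen after seeing the data. So were these, for day 2 against sham: leaving out sham replicate 4 and stroke replicate 3 together gave 2 calls, leaving out BAM4 and BAM5 cells gave 0 and leaving out the tenth of cells with most counts gave 2. Leaving out 1 library at a time gave 2 to 52 calls, 305 to 492 for the difference from microglia, 15 to 94 for the difference from monocyte-derived cells and 0 to 1 in aged mice. The call in aged mice was lost without TMM (0). DESeq2 gave 41 calls, 31 of them shared with edgeR, and library size without TMM gave 32. No called gene reversed in any alternative. Leaving out the lone aged sham library with at least 20 BAM cells was not run, since no control would remain. A fit of every aged library with a BAM cell, 2 sham and 3 stroke, was chosen after seeing the data. It called 1 of 1410 genes, and a difference from young mice for 0. The shallowest of the 8 libraries held 31 and 52 BAM cells, with 16809 and 18523 counts, and the part of depth in the calls was not tested.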

Other observations

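Arg1, the arginase that marks alternatively activated macrophages, was too low to be tested. BAM held 0 Arg1 counts in all 4 sham and all 4 day 14 libraries, and 1, 1, 28 and 82 in the stroke day 2 libraries. The last 2 values are 393 and 341 CPM, unscaled. Pooled over stroke libraries and unscaled, Arg1 stood at 297 CPM in BAM, 1387 in monocyte-derived cells and at most 16.9 in microglia, dendritic cells and granulocytes.

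Saa3, an acute phase protein named after its values were seen, was at 233, 118, 80.6 and 156 TMM-scaled CPM in sham, 338, 332, 362 and 2799 in stroke day 2 and 0 in all 4 day 14 libraries. The highest value belongs to stroke replicate 4. The rise at day 2 did not pass (log2 fold change 2.88 ± 0.73, adjusted p = 0.060, edgeR quasi-likelihood test), while the difference from monocyte-derived cells did (3.04 ± 0.65, adjusted p = 0.023).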
